A study of Drosophila melanogaster with 6 samples.

Results

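The transcriptome of Drosophila follicle cells expressing the Q79K-W80R form of human AKT1 was compared with that of cells from the empty landing pad line (LP), which carries the same driver and no AKT1. Genes were kept when their normalized value reached 10 in at least 3 of the 6 libraries compared, and 9073 of the 17493 genes in the matrix passed. All 9073 were tested, and differentially expressed genes (DEGs) are those with an adjusted p under 0.05 and a Log2FC, Q79K-W80R minus LP, of at least the log2 of 1.5 (rounded to 3 decimals) in either direction.

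The LP flies were TJ-Gal4 females with the empty insertion site, and the Q79K-W80R flies were TJ-Gal4; W80R-Q79K AKT1 females. Both substitutions lie in the pleckstrin homology domain of AKT1, in a transgene placed at the landing site that LP keeps empty. The driver traffic jam-GAL4 is active in somatic cells of the ovary, so that AKT1 was made in the follicular epithelium while the fly's own Akt gene remained in both groups. Each group had 3 libraries from pooled ovaries of separate crosses, dissociated with enzymes and passed through a mesh. No cell sort is described, and the sources used here do not tell the age of the flies or the rearing temperature behind each library. The remaining 12 libraries of the series come from flies with wild-type AKT1 (WT) or with AKT1 carrying an in-frame duplication (T1, T15 and T5), with 3 libraries each.

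Insulin-like peptides bind the receptor InR, which activates PI3K. The lipid made by PI3K recruits Akt to the membrane through its pleckstrin homology domain, where Pdk1 phosphorylates it. Akt keeps the transcription factor FOXO out of the nucleus and, through Tsc1 and gig, favours TOR activity and growth. Follicle cells surround the germline cyst of each egg chamber, take their fate from Notch, EGFR and JAK-STAT signals, and in late oogenesis make yolk proteins, the vitelline membrane and the chorion.

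Summed normalized values were 24796472 to 26737453 per LP library and 23688734 to 24266118 per Q79K-W80R library. These are totals after scaling, and the number of reads behind each gene is unknown. The Q79K-W80R libraries resembled each other more than the LP libraries did. Among genes with a mean of at least 50, the median SD of the log2 values was 0.0644 in Q79K-W80R and 0.12 in LP. The follicle cell genes tj, Fas3 and eya were abundant in all 6 libraries, with values from 2854 upwards. The germline transcript osk, at 8882 to 14355, was abundant too, so that these are not pure somatic libraries. Human AKT1 is not a row of the matrix, and the presence of the transgene was not checked here. The fly gene Akt was 3109, 3386 and 3029 in LP and 2690, 2764 and 2704 in Q79K-W80R (Log2FC -0.22 ± 0.06 SE, adjusted p = 0.024), below the fold required of a DEG. The SE follows the ± sign with every Log2FC below, and every group mean rests on n = 3.

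Q79K-W80R cells differed from LP cells in 1414 DEGs, 15.6% of the genes tested. Of these, 944 genes (10.4%) were higher in Q79K-W80R and 470 (5.18%) were lower. A Log2FC of 1 or more was reached by 612 DEGs, and one of -1 or less by 275. The 2 groups did not overlap for 1411 of the 1414 DEGs, while 48.4% of all genes tested had groups that did not overlap. The median Log2FC over all genes was -0.00805. Calls made up 27.7% of the 1371 genes with a mean under 50, 9.36% of those between 500 and 5000 and 11.9% of those above. On the edge of the call, bgm and Fmo-2 had a Log2FC of 0.587 and were counted, while olf186-M at 0.58498 and CG12517 at 0.584 were not. The plot of Log2FC against level shows rises over the full range of levels and a separate tail of falls that is discussed with the midgut genes.

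**Figure D1:**
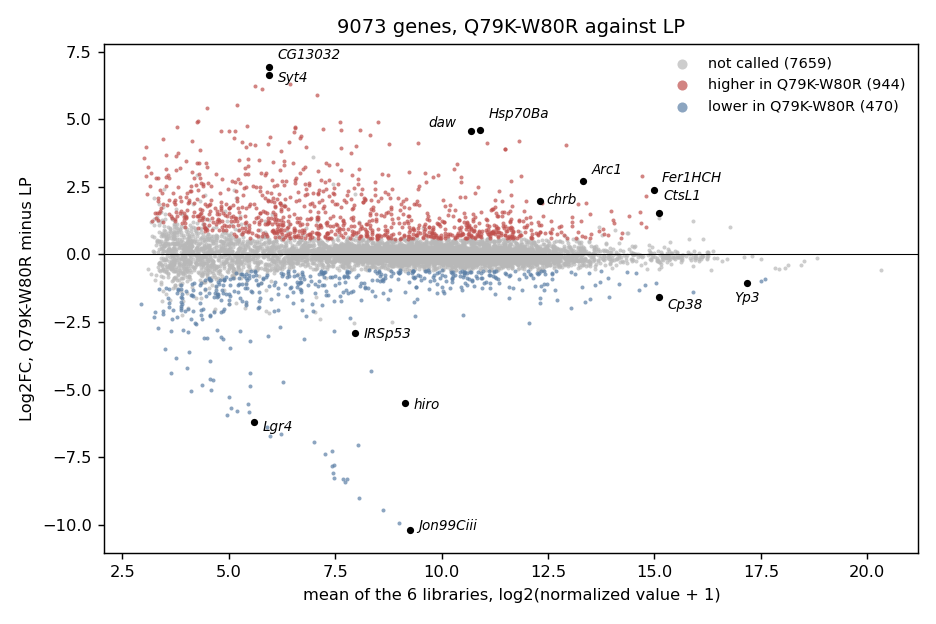
Log2FC of Q79K-W80R over LP (vertical) against the mean of the 6 libraries on the log2(normalized value + 1) scale (horizontal) for 9073 genes, each point being a gene, with 944 DEGs higher in red and 470 lower in blue. Fer1HCH and CtsL1 rose at high levels, and the tail of falls below a Log2FC of -6 includes Jon99Ciii and Lgr4.

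Several negative regulators of PI3K and TOR signaling rose in Q79K-W80R, and the receptor InR and the kinase Pdk1 fell. Of 29 genes of the pathway tested, 6 were higher and 2 lower, with a median Log2FC of -0.10 against -0.01 for all genes. Over all genes tested 10.4% were higher and 5.18% lower. This count and that of every list below are to be read beside these shares. chrb, which inhibits TOR upstream of the Tsc complex, was 2363, 2168 and 1682 in LP and 7599, 7963 and 8675 in Q79K-W80R (Log2FC 1.98 ± 0.12, adjusted p = 2.1e-05). Its partner scyl, of the same family, was 4633, 3097 and 4466 in LP against 14348, 14941 and 15005 (Log2FC 1.88 ± 0.14, adjusted p = 5.1e-05). For both genes every Q79K-W80R library was more than 3 times the highest LP library. Sesn, a stress sensor that restrains TOR, was 1331, 1173 and 1163 in LP and 2304, 2341 and 2163 in Q79K-W80R (Log2FC 0.89 ± 0.07, adjusted p = 6.3e-05).

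The insulin receptor InR was 1960, 1417 and 1865 in LP and 977, 973 and 1047 in Q79K-W80R (Log2FC -0.79 ± 0.12, adjusted p = 0.0014). Pdk1, the kinase that acts directly on Akt, was 3956, 5148 and 3795 in LP and 1934, 1780 and 1839 in Q79K-W80R (Log2FC -1.20 ± 0.11, adjusted p = 0.00013). Neither gene had overlapping groups. Pi3K21B, the adaptor subunit of PI3K, was 3126, 2031 and 2356 in LP and 3931, 3692 and 4309 in Q79K-W80R (Log2FC 0.69 ± 0.14, adjusted p = 0.0082), and without LP replicate 2 its Log2FC of 0.55 no longer made it a DEG. PRAS40, an Akt substrate that inhibits TOR, was 2959, 2192 and 2638 against 4026, 4085 and 4122 (Log2FC 0.66 ± 0.10, adjusted p = 0.0017), and was likewise no DEG without LP replicate 2 (Log2FC 0.55). These genes at the core of the pathway were not DEGs: chico, Pi3K92E, foxo, Tsc1, gig, mTor and S6k had a Log2FC between -0.23 and -0.02.

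**Figure D2:**
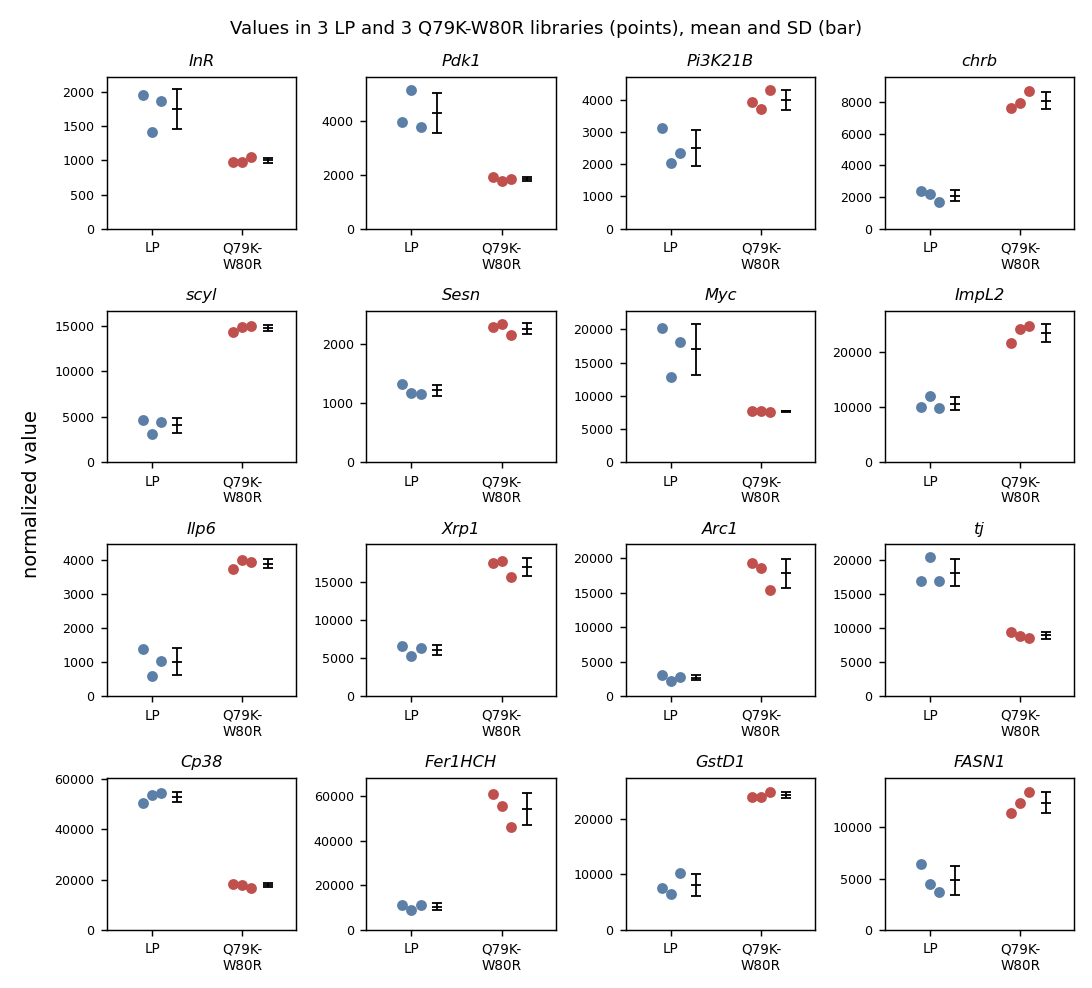
Normalized values (vertical, each panel starting at 0) of 16 genes in 3 LP libraries (blue) and 3 Q79K-W80R libraries (red), with the mean and SD beside the points. No panel has overlapping groups, and the Q79K-W80R points of Myc, InR and Pdk1 lie close together below those of LP.

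Secreted regulators of insulin signaling rose together with other genes that FOXO is known to activate. Of 9 FOXO target genes tested, 5 were higher and 2, InR and Myc, lower, with a median Log2FC of 0.89. ImpL2, which binds and sequesters insulin-like peptides, was 9965, 11942 and 9921 in LP and 21554, 24075 and 24663 in Q79K-W80R (Log2FC 1.15 ± 0.10, adjusted p = 8.6e-05). Ilp6, an insulin-like peptide known from the fat body, was 1401, 596 and 1040 against 3745, 4019 and 3940 (Log2FC 2.03 ± 0.26, adjusted p = 0.0007). The lowest Q79K-W80R library lay above the highest LP library for both. Lip4, a lipase, had a Log2FC of 1.70 ± 0.20 (adjusted p = 0.00049). Thor, the 4E-BP that holds back cap-dependent translation, was 5366, 2362 and 6983 in LP and 9232, 9928 and 8848 in Q79K-W80R (Log2FC 1.07 ± 0.34, adjusted p = 0.044). This call rested on the full set of libraries: without LP replicate 1 the adjusted p was 0.0546, and without any 1 of the Q79K-W80R libraries it was between 0.0979 and 0.119.

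Myc, a driver of ribosome production and cell growth, was 20193, 12788 and 18118 in LP and 7799, 7689 and 7574 in Q79K-W80R (Log2FC -1.12 ± 0.15, adjusted p = 0.00091). The Q79K-W80R libraries were nearly equal, and all were below the lowest LP value. Among 21 ribosome biogenesis genes 1 was higher and none lower, with a median Log2FC of -0.17, and that gene was nclb at 0.74. None of the 88 cytoplasmic ribosomal protein genes was a DEG (median -0.07), and none of 28 cell cycle and replication genes (median -0.02).

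Several stress genes that respond to amino acid shortage rose. Xrp1, a bZIP transcription factor of the stress response, was 6554, 5235 and 6305 in LP and 17479, 17721 and 15583 in Q79K-W80R (Log2FC 1.49 ± 0.10, adjusted p = 3e-05). AsnS, which makes asparagine, was 1100, 372 and 1624 in LP against 6356, 6381 and 6679 (Log2FC 2.89 ± 0.45, adjusted p = 0.0018). The LP libraries differed among themselves by more than 4 times for AsnS, yet stayed below every Q79K-W80R library. trbl, a pseudokinase that binds and inhibits Akt in flies, rose with a Log2FC of 0.82 ± 0.08 (adjusted p = 0.00017), and P5CS, an enzyme of proline synthesis, with 2.40 ± 0.46 (adjusted p = 0.0054). With Thor they make 5 higher of 7 genes in a list drawn up after values had been seen. crc, the fly ATF4 that acts in this response, did not pass (Log2FC 0.00), nor did any of 11 unfolded protein response genes or 18 aminoacyl-tRNA synthetase genes.

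Some metabolic genes of gluconeogenesis and glutamate use were higher in Q79K-W80R. Of 12 glutamate and gluconeogenesis genes 6 were higher and none lower (median Log2FC 0.61). Gdh, which converts glutamate to 2-oxoglutarate, was 10229, 8418 and 10622 in LP and 21778, 23378 and 25560 in Q79K-W80R (Log2FC 1.28 ± 0.11, adjusted p = 8e-05). Pepck1, the entry enzyme of gluconeogenesis, was 727, 362 and 171 against 5356, 5362 and 5387 (Log2FC 3.91 ± 0.43, adjusted p = 0.00032). The same values stand under CG45087, so that reads may be shared between both entries. Its paralog Pepck2 rose as well, with a Log2FC of 2.60 ± 0.20 (adjusted p = 5.2e-05), and Got2, the mitochondrial aspartate aminotransferase, with 0.76 ± 0.06 (adjusted p = 5.6e-05).

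FASN1, the fatty acid synthase, was 6385, 4449 and 3640 in LP and 11428, 12331 and 13458 in Q79K-W80R (Log2FC 1.40 ± 0.18, adjusted p = 0.00075). Every Q79K-W80R library was above every LP library for this gene. Of 13 fatty acid synthesis genes 3 were higher and none lower (median Log2FC 0.22), the others being AcCoAS, of acetyl-CoA synthesis, and bgm. The count was 2 without LP replicate 2 or Q79K-W80R replicate 1 or 3, and 1, FASN1, in the fit of all 18 libraries. Of 14 lipid storage and lipolysis genes 5 were higher and 1 lower (median Log2FC 0.38). Lsd-1, a perilipin of the lipid droplet surface, was 730, 271 and 167 in LP against 2978, 2380 and 1869 (Log2FC 2.88 ± 0.46, adjusted p = 0.0022). Agpat2, an acyltransferase of glycerolipid synthesis, was 627, 492 and 556 against 1406, 1399 and 1412 (Log2FC 1.34 ± 0.09, adjusted p = 3.1e-05). The gene that fell was whd, the carnitine palmitoyltransferase that admits fatty acids to mitochondria, with a Log2FC of -0.67 ± 0.06 (adjusted p = 0.00011).

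The enzymes Pgd and Zw of the pentose phosphate pathway, which supply NADPH, rose, Pgd by 1.25 ± 0.08 on the log2 scale (adjusted p = 3.1e-05) and Zw by 0.79 ± 0.10 (adjusted p = 0.00067). Gapdh2, of glycolysis, was 9172, 9626 and 9246 in LP and 17003, 17230 and 16789 in Q79K-W80R (Log2FC 0.86 ± 0.06, adjusted p = 3.6e-05). Within each group its 3 values differed by less than the gap between the groups. Of 15 glycolysis genes 3 were higher and 1 lower, beside 10.4% higher and 5.18% lower over all genes. The gene that fell was Hex-C, a hexokinase, whose call (Log2FC -1.28, adjusted p = 0.048) was lost without LP replicate 1 or 3, without Q79K-W80R replicate 1 or 3, without the filter, without a trend and in the fit of all 18 libraries. None of 15 tricarboxylic acid cycle genes was a DEG (median Log2FC -0.10).

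Detoxification genes of several families rose. All 9 delta-class glutathione S-transferase genes tested were higher (median Log2FC 1.99), although GstD9 was no DEG without LP replicate 1 or without any 1 of the Q79K-W80R libraries (adjusted p 0.0663 to 0.0892) and GstD7 none without Q79K-W80R replicate 3. The genes of this cluster are similar in sequence, and their reads may be split between copies. GstD1, the most abundant, was 7604, 6405 and 10252 in LP and 23934, 24079 and 24938 in Q79K-W80R (Log2FC 1.62 ± 0.15, adjusted p = 0.00014). GstD5 was 7.51, 13 and 11.8 against 278, 297 and 277 (Log2FC 4.63 ± 0.21, adjusted p = 7.8e-06). Both showed a gap between the groups larger than the range within either.

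Families looked up after values had been seen went the same way. Of 84 cytochrome P450 genes 47 were tested, and of these 24 were higher and 3 lower (median Log2FC 0.71). Of 35 UDP-glycosyltransferase genes 17 were tested, with 7 higher and none lower. Of 14 epsilon-class glutathione S-transferase genes 13 were tested, with 7 higher and none lower. Low members can pass the filter through the Q79K-W80R libraries alone, which sets their direction. How many did so was not counted. Cyp9b2 was 113, 68.5 and 83.5 in LP and 672, 716 and 678 in Q79K-W80R (Log2FC 2.98 ± 0.17, adjusted p = 1.4e-05). Cyp12c1 was 7.62, 4.42 and 5.96 in LP and 219, 158 and 161 in Q79K-W80R (Log2FC 4.69 ± 0.25, adjusted p = 1.1e-05). Cyp18a1, which inactivates ecdysone, had a Log2FC of 1.53 ± 0.14 (adjusted p = 0.00011).

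Ferritin was among the most abundant transcripts that rose. Fer1HCH, the heavy chain, was 11108, 8676 and 11300 in LP and 60930, 55439 and 46346 in Q79K-W80R (Log2FC 2.39 ± 0.14, adjusted p = 1.6e-05). The light chain Fer2LCH was 11921, 8886 and 10916 against 51721, 47121 and 40984 (Log2FC 2.14 ± 0.13, adjusted p = 2e-05). The LP values of both chains were within the same range of levels, and so were those of Q79K-W80R. Zip99C, a transporter that delivers iron to the secretory pathway, rose with a Log2FC of 1.41 ± 0.21 (adjusted p = 0.0016). The other 6 of the 9 iron handling genes tested were not DEGs. Of 22 autophagy and lysosome genes 3 were higher and none lower, beside 10.4% higher over all genes. CtsL1, a lysosomal cathepsin, was 22400, 15081 and 17678 in LP and 52695, 50364 and 53900 in Q79K-W80R (Log2FC 1.53 ± 0.14, adjusted p = 0.00013), and cathD had a Log2FC of 0.76 ± 0.10 (adjusted p = 0.00072). The third was the autophagy receptor ref(2)P at 0.82 ± 0.16 (adjusted p = 0.0063). The cathepsin CtsB was not a DEG (Log2FC 0.02), and the vacuolar ATPase had 0 DEGs of 15 genes.

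The summed level of heat shock genes was higher in Q79K-W80R and uneven within LP. The list summed to 1.28%, 0.695% and 1.59% of the LP libraries and to between 1.98% and 2.22% of the Q79K-W80R libraries. All 18 genes had a Log2FC above 0 (median 1.01), and 5 were DEGs. The count was 16 without LP replicate 3, 7 without LP replicate 2, 3 without LP replicate 1 and 2 without any 1 of the Q79K-W80R libraries. Hsp70Ba, an inducible chaperone, was 201, 70.0 and 232 in LP and 3099, 3936 and 3869 in Q79K-W80R (Log2FC 4.60 ± 0.39, adjusted p = 9.1e-05), and its reads may be shared with the near-identical Hsp70 copies. The means of the WT, T1, T15 and T5 groups were 3523 to 6272 for this gene, so that LP stood apart from all 5 AKT1 lines. stv, a BAG co-chaperone, had a Log2FC of 1.29 ± 0.28 (adjusted p = 0.0099).

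**Figure D3:**
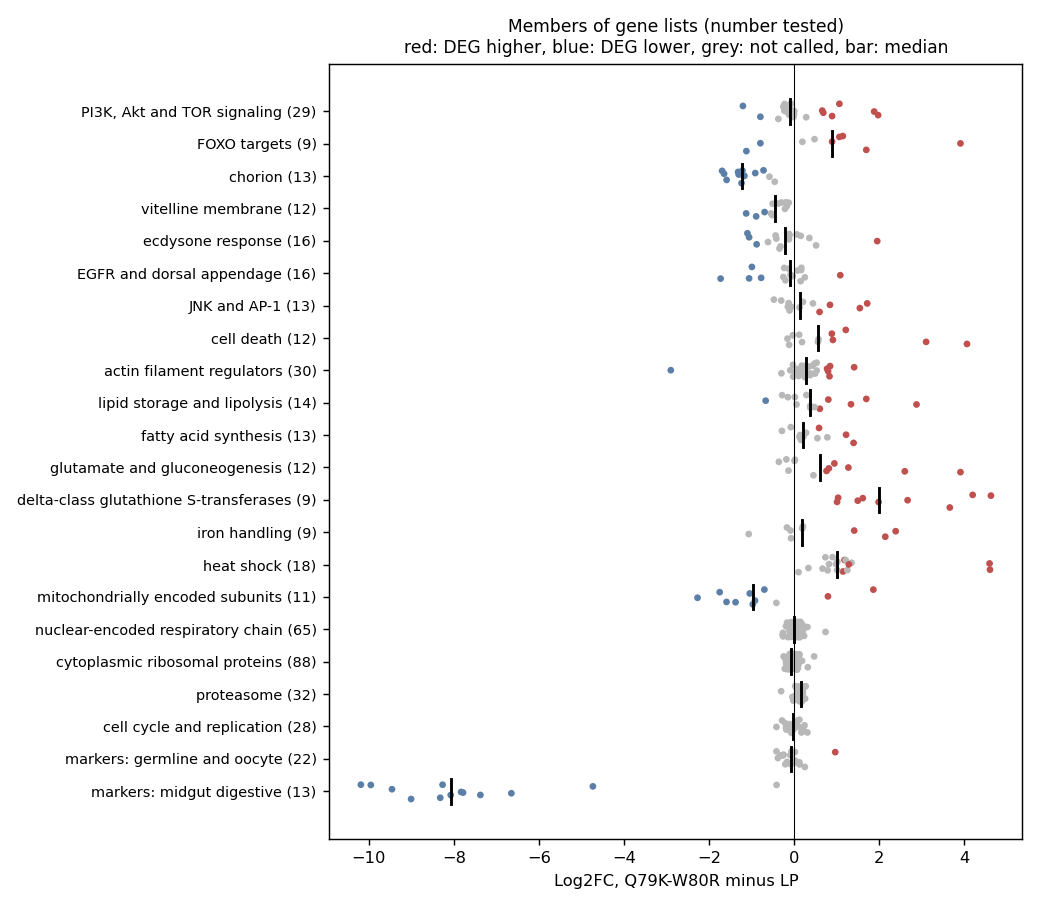
Log2FC of Q79K-W80R over LP (horizontal) for the tested members of 22 gene lists, each point being a gene, red for DEGs higher, blue for DEGs lower and grey for genes not called, with a bar at the median. All 9 delta-class glutathione S-transferase points are red and to the right of 0, 11 of 13 chorion points are blue, and the ribosomal protein and proteasome lists lie around 0.

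Eggshell genes of late oogenesis were lower in Q79K-W80R. Of 13 chorion genes 11 were lower and none higher (median Log2FC -1.21), and the list summed to 0.947 to 1.08% of the LP libraries and 0.494 to 0.543% of the Q79K-W80R libraries. Cp38, a structural chorion protein, was 50497, 53797 and 54500 in LP and 18369, 17756 and 16776 in Q79K-W80R (Log2FC -1.59 ± 0.08, adjusted p = 9.9e-06). yellow-g, needed for eggshell integrity, was 9880, 10733 and 9961 against 3254, 3226 and 2984 (Log2FC -1.69 ± 0.06, adjusted p = 3.9e-06). Their groups were far apart, with little spread in either. Cp15, the most abundant member, was 109170, 80114 and 107420 in LP and 69640, 63949 and 63258 in Q79K-W80R, and its Log2FC of -0.58 ± 0.15 (adjusted p = 0.019) stayed just short of a DEG. In bulk libraries fewer late egg chambers and less RNA per cell cannot be told apart.

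These calls depended on the estimate of spread. In a fit of all 18 libraries, where the 6 groups share one estimate per gene, 0 of the 13 chorion genes and 0 of the 12 vitelline membrane genes were DEGs, with the same Log2FC. Pi3K21B, PRAS40, Thor, P5CS, Hr3, Eip78C, Oamb, ttk, Ilp8, mirr, cas, Socs36E, hid and bgm were likewise no DEGs in that fit. Chorion levels varied within other groups: the mean of Cp38 was 60353 in WT, 57513 in T15, 23277 in T1 and 31771 in T5, and single T1 and T5 libraries lay both above and below those of Q79K-W80R. Of the 12 vitelline membrane genes 3 were lower, Vm26Ac, psd and ndl, and all 12 had a Log2FC below 0 (median -0.44). Without LP replicate 1 the count was 6, Vm26Ab (Log2FC -0.73, adjusted p = 0.0305) and Vm34Ca (-0.72, adjusted p = 0.0252) among them, and without any 1 of the other libraries it was 2. The most abundant, Vm26Aa, did not pass and was 307260, 460900 and 444330 in LP and 308760, 320000 and 292800 in Q79K-W80R, with overlapping groups (Log2FC -0.37 ± 0.23, adjusted p = 0.26). ndl, a protease of the vitelline membrane that acts in embryonic axis formation, had a Log2FC of -1.13 ± 0.18 (adjusted p = 0.0019).

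Of the yolk protein genes, Yp3 fell from 157190, 204660 and 240530 in LP to 89470, 97393 and 100440 in Q79K-W80R (Log2FC -1.05 ± 0.18, adjusted p = 0.0033). Yp1 (Log2FC -0.40, adjusted p = 0.20) and Yp2 (-0.26, adjusted p = 0.43) did not pass, and their groups overlapped. Ecdysone drives late follicle cell programmes, and 3 of 16 ecdysone response genes were lower and 1 higher (median Log2FC -0.22). Eip74EF, an early-response transcription factor, was 1792, 2239 and 1998 in LP and 1061, 1118 and 1082 in Q79K-W80R (Log2FC -0.88 ± 0.08, adjusted p = 0.00015). The nuclear receptor Hr3 (Log2FC -1.06 ± 0.18, adjusted p = 0.0027) fell, and so did Eip78C (-1.10 ± 0.15, adjusted p = 0.001). The receptor subunits EcR and usp were not DEGs (Log2FC -0.11 and 0.16). spo, an enzyme early in ecdysone synthesis, was 2963, 4336 and 3420 in LP and 1658, 1675 and 1702 in Q79K-W80R (Log2FC -1.07 ± 0.12, adjusted p = 0.00041).

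The octopamine receptor genes Octbeta2R and Oamb, which act in ovulation, were lower. Octbeta2R was 613, 290 and 340 in LP and 189, 165 and 147 in Q79K-W80R (Log2FC -1.23 ± 0.25, adjusted p = 0.0074). Oamb was 939, 608 and 825 against 484, 473 and 474 (Log2FC -0.71 ± 0.14, adjusted p = 0.007), and its Log2FC without LP replicate 1 was -0.57, short of a DEG. Of 10 maturation and ovulation genes, 4 were lower and none higher. The others were ttk, a transcription factor of the late follicle cell switch, which lost its call without LP replicate 2 (Log2FC -0.52), and Ilp8, a relaxin-like peptide, whose groups overlapped and whose call (Log2FC -0.85, adjusted p = 0.047) held in 1 of the 6 fits that left out a library, that without LP replicate 2.

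Genes of follicle cell identity moved in both directions. tj, the somatic transcription factor whose regulatory sequence gave the driver, was 16995, 20471 and 16998 in LP and 9475, 8871 and 8521 in Q79K-W80R (Log2FC -1.02 ± 0.09, adjusted p = 0.00012). Every Q79K-W80R library was below every LP library. Fas3, an adhesion molecule of early follicle cells, was 3207, 3140 and 2854 against 6250, 5673 and 5181 (Log2FC 0.89 ± 0.08, adjusted p = 0.00013). bab1, a marker of germarium and stalk cells, rose from 43.3, 39.2 and 47.0 to 106, 88.4 and 87.9 (Log2FC 1.11 ± 0.15, adjusted p = 0.0011). Of 15 identity genes 3 were higher and 3 lower (median Log2FC 0.13), beside 10.4% higher and 5.18% lower over all genes. The other 2 lower were slbo, of border cells, at -1.24 ± 0.16 (adjusted p = 0.00067), and mirr, of the anterior dorsal domain, at -0.79 ± 0.09 (adjusted p = 0.00038). The third gene higher was cas, of stalk and polar cell precursors, at 0.61 ± 0.08 (adjusted p = 0.001), and it was no DEG without LP replicate 3 (Log2FC 0.53) or Q79K-W80R replicate 1 (0.58). The pan-somatic gene eya did not differ (Log2FC 0.13, adjusted p = 0.27).

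The T-box genes H15 and mid, which act in ventral fate, were lower. H15 was 321, 511 and 330 in LP and 74.8, 79.2 and 64.6 in Q79K-W80R (Log2FC -2.36 ± 0.19, adjusted p = 6.2e-05), and mid had a Log2FC of -1.07 ± 0.11 (adjusted p = 0.00019). Of 16 genes of EGFR signaling and dorsal appendage formation 4 were lower and 1 higher (median Log2FC -0.10). aos, a secreted EGFR inhibitor, was 260, 308 and 253 in LP and 86.0, 81.2 and 78.2 in Q79K-W80R (Log2FC -1.73 ± 0.11, adjusted p = 3e-05). sty, an intracellular inhibitor, was 3323, 2979 and 2780 against 1603, 1458 and 1306 (Log2FC -1.06 ± 0.09, adjusted p = 0.00011). Neither had overlapping groups. pnt, the ETS factor of this pathway, had a Log2FC of -0.77 ± 0.08 (adjusted p = 0.00033) and dpp, a BMP ligand of the anterior follicle cells, -0.99 ± 0.13 (adjusted p = 0.00069). rho, a protease that releases EGFR ligands, rose with 1.09 ± 0.15 (adjusted p = 0.0012). Egfr itself was not a DEG (Log2FC -0.23), nor was kek1, another feedback inhibitor (-0.08).

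In the Notch and endocycle list 2 of 16 genes were lower and none higher, beside 5.18% lower and 10.4% higher over all genes. fzr, the activator of the anaphase-promoting complex that switches cells to endocycles, was 2282, 2225 and 2169 in LP and 1231, 1120 and 1087 in Q79K-W80R (Log2FC -0.96 ± 0.06, adjusted p = 3.1e-05). The ligand gene Delta had a Log2FC of -0.62 ± 0.06 (adjusted p = 0.00023), which was -0.58 and short of a DEG without LP replicate 3. Of 10 JAK-STAT genes 2 were higher, beside 10.4% over all genes. They were the feedback inhibitor Socs36E at 0.95 ± 0.12 (adjusted p = 0.00057) and the phosphatase Ptp61F at 0.71 ± 0.07 (adjusted p = 0.00014). The activin-type ligand daw was the gene of the TGF-beta list with the largest change. It was 192, 129 and 93.2 in LP and 2785, 3200 and 3558 in Q79K-W80R (Log2FC 4.57 ± 0.23, adjusted p = 9.4e-06). Its level in the other AKT1 lines lay between, with means of 359 in WT, 646 in T1, 1805 in T15 and 2078 in T5.

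Several cell death and JNK target genes were higher. rpr, a proapoptotic antagonist of IAP proteins, was 33.9, 19.6 and 30.4 in LP and 245, 265 and 218 in Q79K-W80R (Log2FC 3.10 ± 0.21, adjusted p = 3.2e-05). Dronc, the initiator caspase, was 482, 432 and 457 against 860, 835 and 843 (Log2FC 0.89 ± 0.07, adjusted p = 5.1e-05). hid, of the same class as rpr, had a Log2FC of 1.22 ± 0.26 (adjusted p = 0.009). Of 12 cell death genes 5 were higher and none lower (median Log2FC 0.57), and the caspase Drice and the inhibitor Diap1 just missed the fold, at 0.56 and 0.58. puc, the phosphatase that JNK induces, was 1643, 1444 and 1543 in LP and 2764, 2749 and 2791 in Q79K-W80R (Log2FC 0.84 ± 0.06, adjusted p = 4.5e-05). The metalloprotease Mmp1, another JNK target, had a Log2FC of 1.55 ± 0.17 (adjusted p = 0.00033). The kinases hep and bsk of the pathway were not DEGs (Log2FC 0.13 and -0.06), and 4 of 13 genes of the list were higher. The count was 3 without LP replicate 2 or Q79K-W80R replicate 3 and after quantile normalization, where Jra lost its call. It was also 3 among genes with a mean of at least 50.

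Of 30 actin filament regulators 5 were higher and 1 lower (median Log2FC 0.27), against 10.4% higher and 5.18% lower over all genes, and 24 were not DEGs. The 5 were cib, Pak3, sqh, Fim and RhoL, the last of which was no DEG in the fit of all 18 libraries. cib, an actin monomer-binding protein, was 13658, 12061 and 10155 in LP and 32888, 31986 and 29976 in Q79K-W80R (Log2FC 1.41 ± 0.11, adjusted p = 6.3e-05). Pak3, a kinase of actin organisation, was 2592, 2112 and 2393 against 4023, 4138 and 4449 (Log2FC 0.83 ± 0.08, adjusted p = 0.0002). The groups did not overlap for either gene. Among cytoplasmic actins, Act42A rose with a Log2FC of 1.01 ± 0.09 (adjusted p = 0.00013), while Act5C reached 0.58 ± 0.12 (adjusted p = 0.0073) and was not a DEG. The filamin gene cher had a Log2FC of 0.44 ± 0.07 (adjusted p = 0.0023) and the microtubule-binding gene Map205 0.47 ± 0.06 (adjusted p = 0.00061), both short of the fold. The gene that fell was IRSp53, which links membranes to actin, at 396, 546 and 385 in LP and 49.994, 57.9 and 66.3 in Q79K-W80R (Log2FC -2.90 ± 0.17, adjusted p = 1.6e-05). Its mean was 54.0 to 62.2 in WT, T1, T15 and T5, so that LP again stood apart.

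Mitochondrially encoded transcripts were mostly lower. With mitochondrial ribosomal RNA they made up 7.49 to 10.4% of the LP libraries and 4.71 to 7.43% of the Q79K-W80R libraries, and 8 of 11 subunit genes were lower and 2 higher (median Log2FC -0.97). mt:ND1, of complex I, was 23895, 22274 and 23208 in LP and 7832, 4604 and 12607 in Q79K-W80R (Log2FC -1.59 ± 0.30, adjusted p = 0.0051). The Q79K-W80R libraries differed among themselves by more than 2 times for this gene. Without Q79K-W80R replicate 1 or 2 the number lower was 3, without LP replicate 1 it was 5, and in the fit of all 18 libraries it was 0. None of the 65 nuclear genes of the respiratory chain was a DEG (median 0.01), nor any of 72 mitochondrial ribosomal protein genes (median 0.03).

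A small set of genes set the Q79K-W80R libraries apart from the other AKT1 lines. In the fit of all 18 libraries, 281 of 9691 genes (2.9%) differed between Q79K-W80R and the mean of the 3 duplication groups at an adjusted p under 0.05, 2.17% being higher and 0.733% lower in Q79K-W80R. Between Q79K-W80R and WT 1852 genes (19.1%) differed, 10.9% higher and 8.21% lower. Without any 1 of the Q79K-W80R libraries the first count was 64 to 68. Arc1, which forms capsids that carry mRNA between cells, was 2993, 2258 and 2798 in LP and 19331, 18619 and 15420 in Q79K-W80R (Log2FC 2.73 ± 0.12, adjusted p = 7.8e-06). Its mean was 2360 in WT, 2821 in T1, 2642 in T15 and 4405 in T5, and the Log2FC of Q79K-W80R over the duplications was 2.5 ± 0.20 (adjusted p = 9.8e-06). Its relative Arc2 rose from 48.9, 53.3 and 40.5 to 298, 258 and 228 (Log2FC 2.43 ± 0.15, adjusted p = 2.4e-05), and by 1.37 ± 0.19 on the log2 scale over the duplications (adjusted p = 0.00099).

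Lgr4, a leucine-rich repeat receptor of the G protein-coupled class, was 66.3, 135 and 79.8 in LP and 0.792, 0 and 0 in Q79K-W80R (adjusted p = 3.8e-05). The means of the other 4 groups were 44.2 to 93.7, and its difference from the duplications passed with an adjusted p of 6.3e-08. CG12531 went the other way, at 5.77, 5.59 and 0.857 in LP and 296, 266 and 223 in Q79K-W80R (Log2FC 5.90 ± 0.48, adjusted p = 7.1e-05), with means of 2.20 to 16.0 elsewhere. CG13032 was listed at 0 in every LP library and at 121, 113 and 129 in Q79K-W80R, with a mean of 50.2 in T1 and under 1 in WT, T15 and T5. Among the genes named earlier, chrb, tj, sty, pnt, fzr, Dronc, Gapdh2, GstD1, GstD5 and both ferritin chains also differed between Q79K-W80R and the duplications. For chrb this Log2FC was 1.35 ± 0.19 (adjusted p = 0.0011), and for tj it was -0.56 (adjusted p = 0.029). For InR, Myc, ImpL2, Xrp1 and Cp38 the difference did not pass, with a Log2FC of -0.07, -0.25, 0.34, 0.43 and -0.69.

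**Figure D4:**
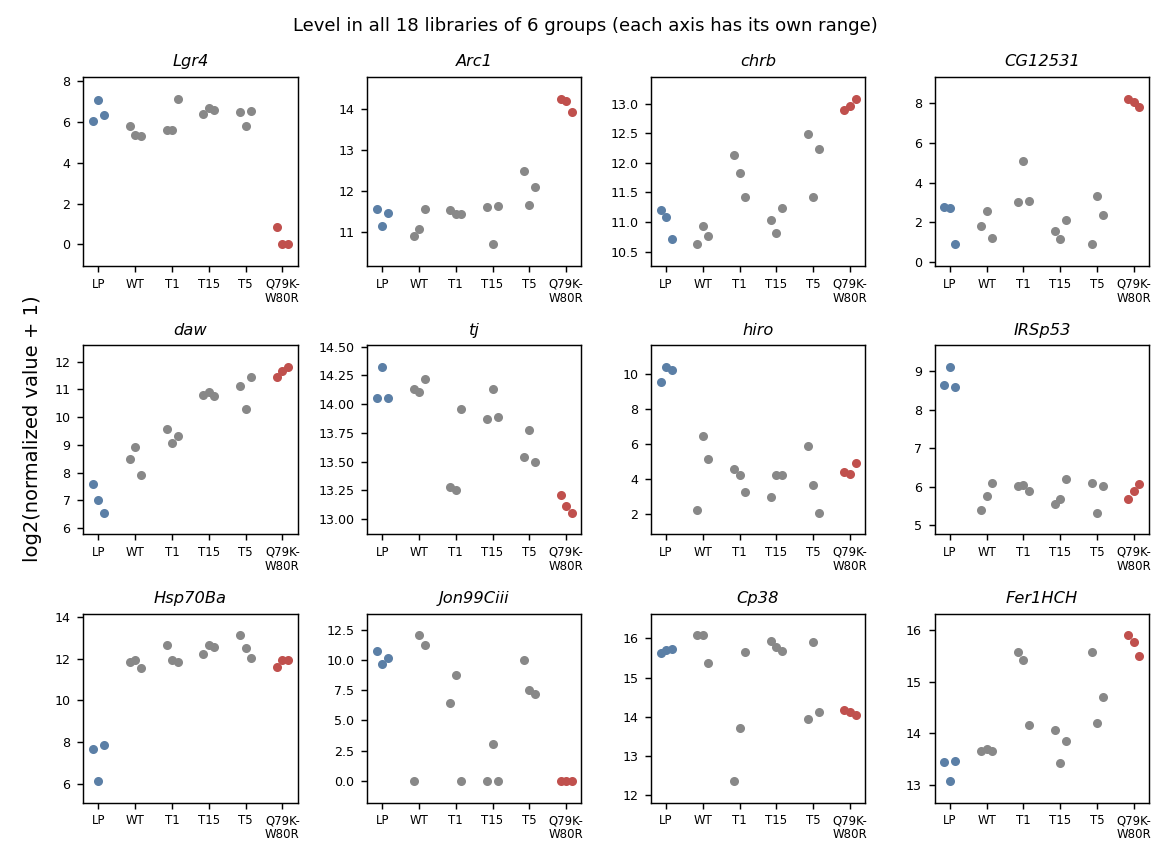
Level of 12 genes on the log2(normalized value + 1) scale (vertical, each panel with its own range) in the 18 libraries of 6 groups, LP in blue, Q79K-W80R in red and the others in grey, each point being a library. Lgr4, Arc1 and CG12531 set Q79K-W80R apart from all other groups, and hiro, IRSp53 and Hsp70Ba set LP apart.

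For other genes it was LP that differed from every AKT1 line. hiro was 757, 1345 and 1220 in LP and 20.5, 18.9 and 29.9 in Q79K-W80R (Log2FC -5.51 ± 0.24, adjusted p = 7.6e-06), and the means of the other 4 groups were 14.5 to 41.6. The difference between Q79K-W80R and WT did not pass for it (Log2FC -0.06, adjusted p = 0.97). Syt4, a synaptotagmin of vesicle fusion, was 0, 0 and 0.855 in LP and 103, 126 and 134 in Q79K-W80R (adjusted p = 1.6e-05), with means of 39.3 to 198 in the other AKT1 lines. For hiro, Syt4, IRSp53, Hsp70Ba and any other gene that set LP apart, the presence of AKT1 and the LP genetic background cannot be told apart. SPR, the sex peptide receptor, was 1.74, 0 and 2.33 in LP and 115, 171 and 227 in Q79K-W80R (adjusted p = 5.9e-05), with a mean of 7.42 in WT and 46.9 to 90.7 in the duplications. The WT mean of SPR was thus nearer to LP than to the other AKT1 lines.

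The genes that fell farthest were digestive enzymes of the midgut, an organ next to the ovary in the abdomen. Of 18 midgut genes 13 were tested, and 12 of these were lower in Q79K-W80R (median Log2FC -8.07). Jon99Ciii, a serine protease of the gut, was 1679, 826 and 1135 in LP and listed at 0 in all 3 Q79K-W80R libraries. Apart from LManII, which was not a DEG, the list summed to 9051, 5449 and 3698 in LP and to 5.50, 3.94 and 7.68 in Q79K-W80R. The same sum in the other groups ranged from 8.98 to 14880 in WT, from 12.0 to 4682 in T1, from 2.29 to 156 in T15 and, less widely, from 705 to 2072 in T5. The 12 tested genes of a list of Jonah and trypsin proteases, added after values had been seen, were all lower. Most of them are also in the midgut list, and they too passed the filter mainly through LP. This count is therefore no separate result. With both lists left out and p-values adjusted again over the remaining genes, 1398 DEGs were counted, 943 higher and 455 lower. This left out the listed genes only. Of the 15 largest falls, yip7, Bace, CG18180 and LysD are in neither list and remained in the count. The part of the midgut RNA in other differences was not tested.

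Markers of other cell types were compared in the same way. Germline and oocyte genes summed to 0.249 to 0.285% of the LP libraries and 0.228 to 0.263% of the Q79K-W80R libraries, and 1 of 22 was a DEG, bam at a Log2FC of 0.97. Muscle genes summed to 0.0167 to 0.0180% and 0.0169 to 0.0186%, and neuronal genes to 0.00558 to 0.00674% and 0.00596 to 0.00686%. Of 14 muscle genes 1 was higher and 2 lower, beside 10.4% higher and 5.18% lower over all genes. Of 4 neuronal genes 2 were lower, while elav, which defines neurons, was not a DEG (Log2FC 0.10). The fat body genes summed to 0.000784 to 0.00154% in LP and 0.000309 to 0.000594% in Q79K-W80R, and of the 2 tested, the lipophorin gene apolpp fell (Log2FC -1.86 ± 0.37, adjusted p = 0.006). Hemocyte genes summed to 0.0144 to 0.0214% in LP and 0.0300 to 0.0341% in Q79K-W80R, a difference carried by crq, a scavenger receptor, at a Log2FC of 1.24 ± 0.12 (adjusted p = 0.00014). The hemocyte genes Hml and srp were not DEGs (Log2FC 0.47 and 0.17). The part of these cells in other differences was not tested.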

How the data were processed

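Follicle cell preparations were sequenced after poly(A) selection with a stranded kit. Per the labels and the methods, the authors demultiplexed reads with bcl2fastq 2.18.0.12, aligned them with Bowtie (version not given in the sources used here), estimated gene counts with RSEM 1.3.1 and scaled them with DESeq2. The deposited values are this scaled signal per gene, which is not whole and from which reads could not be recovered, so no count model was run. The genome build is not given in the sources used here, and IDs were matched to symbols only (17372 of 17493).

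Genes reaching 10 in 3 or more of the 6 libraries were tested on log2(value + 1) with limma 3.58.1 (empirical Bayes with a trend, R 4.3.3). A Log2FC on this scale understates the change of low genes. P-values were adjusted by the Benjamini-Hochberg method over the 9073 genes. Contrasts with the other AKT1 lines came from a limma fit of all 18 libraries. Alternatives were other pseudocounts and filters, rescaling by TMM factors (trimmed mean of M values), quantile normalization, no trend, a block for the library number and leaving out each library. Leaving out the midgut lists, and leaving single libraries out of the contrasts with the other AKT1 lines, were chosen after seeing the data. The procedure was tested on simulated data.

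The genes named are the 15 largest rises and the 15 largest falls (groups that do not overlap, higher mean at least 50), the 10 smallest adjusted p, the 10 most abundant DEGs, up to 4 DEGs per gene list and defining list members, summarised where similar. The comparison and the lists were chosen with earlier results of these data known, and further genes and the P450, UDP-glycosyltransferase, epsilon-class, amino acid stress, Turandot, odorant-binding, ionotropic receptor, growth factor, PGRP and Jonah lists were added after values were seen. Libraries come from separate crosses, so the spread includes that between crosses.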

Additional observations from a re-analysis of the deposited data

How the results depend on the processing

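Of the 1414 DEGs, 1015 kept their call in all 6 fits that left out a library. The number of DEGs was 1345 to 1421 without an LP library and 1185 to 1250 without a Q79K-W80R library, with 787 to 985 higher and 397 to 467 lower over these fits. The fit of all 18 libraries gave 934 DEGs, of which 703 were higher and 231 lower. The lower calls of the chorion, vitelline membrane and mitochondrially encoded lists were lost there. Each Log2FC is the same in both fits, and the estimate of spread differs. For Cp38 the SE was 0.602 in the fit of all 18 libraries, larger than in the main fit. Why the spread was larger there was not tested. With the library number as a replicate block 1399 DEGs were counted, 943 higher and 456 lower. The numbers do not pair the libraries, since the same-number correlations of deviations were -0.0136, 0.0999 and 0.121. Counts were 1409 and 1415 with a pseudocount of 0.5 and 5, 1710 without a filter, 1033 with a mean of at least 50, 1411 after TMM rescaling, 1436 after quantile normalization and 1384 without a trend. Of the DEGs 66.8% were higher, and 57.7% after quantile normalization. Without a Q79K-W80R library 64 to 68 genes differed from the duplications in place of 281, and 1097 to 1136 from WT in place of 1852. No named DEG changed direction, while the direction of named genes that were not called was not compared. Over all genes named and alternatives 145 values lost a call and 7 gained one. With 3 libraries per group and values without read numbers, small differences of low genes could not be resolved.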

Other observations

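Secreted and immune gene families that the main account leaves aside had members that changed in Q79K-W80R, upwards only in some families and in both directions in others. Of 5 imaginal disc growth factor genes, which encode chitinase-like secreted proteins, 3 were higher and none lower (median Log2FC 1.97). Idgf2 was 143, 102 and 143 in LP and 525, 508 and 517 in Q79K-W80R (Log2FC 2.01 ± 0.14, adjusted p = 3.5e-05), so that the groups did not overlap. Of 8 peptidoglycan recognition protein genes 5 were higher and none lower (median Log2FC 1.43). PGRP-LB, an amidase that dampens the Imd pathway, was 234, 194 and 222 in LP and 528, 587 and 636 in Q79K-W80R (Log2FC 1.43 ± 0.10, adjusted p = 4.4e-05). Of 9 genes in a list of innate immunity peptides and regulators 3 were higher, Dro, CecA1 and PGRP-LB, and 2 lower, Drs and Drsl5. The antimicrobial peptide gene Dro was 35.3, 37 and 38 in LP against 96.1, 182 and 206 (Log2FC 2.03 ± 0.27, adjusted p = 0.00083). Drsl5 went the other way, at 37.9, 75.1 and 79 in LP and 0.772, 0 and 0 in Q79K-W80R (adjusted p = 8.5e-05). Drs, the antifungal peptide drosomycin, fell from 91.6, 40.5 and 64.9 to 6.19, 5.51 and 14.5 (Log2FC -2.82 ± 0.42, adjusted p = 0.0016) and was no DEG in the fit of all 18 libraries. Of 8 Turandot stress genes 3 were tested, and all 3 were higher. The list summed to 3.48, 5.31 and 37.2 in LP and to 163, 147 and 127 in Q79K-W80R. Its members therefore passed the filter mainly through Q79K-W80R, which largely set the direction of this count. TotC lost its call without LP replicate 1 or 2 or any 1 of the Q79K-W80R libraries. Of 51 odorant-binding protein genes 8 were tested, with 4 higher and 2 lower. Of 66 ionotropic receptor genes 12 were tested, with 6 higher and 3 lower. Low members of such lists can pass the filter through 1 group alone, which sets their direction. Ir94f, at 0.953, 0 and 0 in LP and 117, 93.8 and 75.3 in Q79K-W80R, passed only through Q79K-W80R. These families were looked up after values had been seen.

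Among the genes with the smallest adjusted p was pst, a gene of antiviral resistance, at 1120, 1071 and 1116 in LP and 4300, 4237 and 4502 in Q79K-W80R (Log2FC 1.98 ± 0.05, adjusted p = 8.5e-07). CG15721 was among the most abundant genes that rose, from 6827, 5572 and 6655 to 53310, 48698 and 40046 (Log2FC 2.89 ± 0.12, adjusted p = 7.3e-06). Drat, an alcohol dehydrogenase-domain protein linked to cell death, was 1996, 580 and 565 in LP and 13538, 14176 and 16032 in Q79K-W80R (Log2FC 4.07 ± 0.43, adjusted p = 0.00026). Its mean was 329 in WT, 10118 in T1, 1784 in T15 and 11832 in T5.

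Chromosome 4 differed from the large arms in the balance of calls. Of its 75 genes tested 2 were higher and 12 lower (18.7% called, median Log2FC -0.23), while on arms 2L, 2R, 3L, 3R and X between 14.8% and 16.7% of genes were called and the medians lay between -0.02 and 0.00. The genes lower include unc-13, of vesicle priming, at 3020, 2222 and 2458 in LP and 1351, 1432 and 1435 in Q79K-W80R (Log2FC -0.86 ± 0.11, adjusted p = 0.00058), and dati, a zinc finger factor, at a Log2FC of -1.77 ± 0.14 (adjusted p = 5.6e-05), which was no DEG in the fit of all 18 libraries. In a separate comparison, not made by chromosome, CHKov1 and CG43666 were higher in Q79K-W80R than in LP and lower than in the duplications. For CHKov1 the means were 48.4 in LP, 63.2 in WT, 166 in Q79K-W80R and 435 to 606 in T1, T15 and T5.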
